A study of Sus scrofa with 12 samples.

Results

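The pig microRNAs ssc-miR-99a, ssc-miR-99b, ssc-miR-100, ssc-miR-125a and ssc-miR-125b, written below without the species prefix, were followed in the uterus at birth and 2 days later. They were chosen by name, and each matched 1 row with no separate arm, so the group is 5 of the 420 miRNA rows (362 names) in the table. Small RNA was sequenced from the uteri of 12 neonatal gilts, that is, female piglets, crossbred from Landrace, Yorkshire, Duroc and Hampshire stock. Connective tissue had been trimmed away. The PND0 group (postnatal day 0) holds 4 gilts collected no later than 1 h after birth, and not nursed. In the PND2N group 4 gilts nursed freely for 48 h, and in the PND2R group 4 gilts were fed milk replacer over that period, with both groups collected at 50 h of age. Age and feeding after birth cannot be told apart in either comparison with PND0, while PND2N against PND2R compares nursing with replacer at 1 age. In such bulk tissue, fewer cells of a type and less RNA per cell cannot be told apart.

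MicroRNAs are short RNAs that guide repressor complexes to messenger RNAs, mainly through the few bases near their 5′ end called the seed. miR-99a, miR-99b and miR-100 share 1 seed and miR-125a and miR-125b share another. In human cells the first of these families is known to repress MTOR, a kinase that drives growth. The miR-125 family is the vertebrate counterpart of lin-4, which times larval development in Caenorhabditis elegans, and in mammals it is known to repress LIN28, a blocker of let-7 maturation. Members of the 2 families sit beside a let-7 gene in shared clusters. In the RefSeq gene table of the pig assembly Sscrofa11.1, miR-99b, let-7e and miR-125a are consecutive miRNA genes. So are miR-100, a let-7a gene and the miR-125b gene listed there, and miR-99a stands next to let-7c. No coordinates are given because the submitters' notes name another assembly.

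Depth ranged from 37462 to 12159233 recovered reads per library. Of the 12 libraries 5 held over 1000000 reads, and 4 held under 100000, namely PND2N replicate 2 and PND2R replicates 1 to 3. PND2N replicate 2, the shallowest, also had the lowest TMM factor, 0.839, followed by 0.889 in PND2N replicate 4. The remaining libraries held 0.994 to 1.09. The smooth muscle miRNAs miR-143 and miR-145 summed to 9.49% to 29.1% of a library and the 2 epithelial miRNAs found, miR-205 and miR-429, to 0.0320% to 0.113%. Striated muscle miRNAs summed to 0.182% to 0.482%, and the liver miRNA miR-122 to at most 0.00134%.

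Together the 5 members took 14.9% ± 2.76 (SD, n = 12) of a library's total, from 11.4% in PND0 replicate 2 to 20.6% in PND0 replicate 4. Group means were 15.4% ± 3.93 in PND0, 15.2% ± 2.94 in PND2N and 14.2% ± 1.65 in PND2R (SD, n = 4 each), and the groups overlapped. miR-99a alone made up 55.6% to 71.7% of the members' sum. Shares are of deposited values, which are read counts over a scaling factor, and shares of reads need not match shares of molecules.

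miR-99a was the most abundant member and ranked between 1 and 3 among all rows in every library. It averaged 9.03% ± 2.16 (SD, n = 12). Its share was 8.13%, 6.32%, 9.06% and 12.2% in PND0 replicates 1 to 4. In PND2N it was 8.11%, 13.1%, 6.93% and 11.4%, and in PND2R 8.30%, 7.83%, 9.86% and 7.16%. The groups overlapped throughout, and the PND2R range lay inside those of both other groups. The lowest PND2N shares belonged to the 2 libraries over 1000000 reads and the highest to the shallowest library. Over all groups the 5 libraries over 1000000 reads held 6.32% to 9.06%, and the 4 under 100000 held 7.83% to 13.1%. The 3 libraries of 100000 to 1000000 reads held 8.13% to 12.2%. Their median of 11.4% lay above the 9.08% of the libraries under 100000.

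miR-100, of the same seed family, averaged 1.45% ± 0.336 (SD, n = 12) and ranked between 11 and 24. It stood at 1.64%, 1.06%, 1.33% and 1.68% in PND0. In nursed gilts it was 1.26%, 2.28%, 1.31% and 1.74%, and in replacer-fed gilts 1.29%, 1.31%, 1.29% and 1.17%. PND2N replicates 2 and 4 held the 2 highest shares of the 12, while the other 2 nursed gilts lay within the narrow PND2R range. miR-99b, the least abundant member at 0.220% ± 0.0303, ranked between 41 and 60. Its share was 0.197%, 0.187%, 0.253% and 0.222% in PND0, then 0.238%, 0.269%, 0.236% and 0.244% in PND2N, and 0.227%, 0.169%, 0.192% and 0.202% in PND2R. All 4 nursed gilts lay above all 4 replacer-fed gilts, while the PND0 range crossed both. This member rests on the fewest reads, 92 to 170 in the 4 shallow libraries. In PND2N replicate 2 it had 101 reads, which gives its share an exact (Clopper-Pearson) 95% interval of 0.220% to 0.328%. Such intervals cover counting error only.

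miR-125b, the more abundant of the miR-125 pair, averaged 3.33% ± 0.862 (SD, n = 12) and ranked between 5 and 12. In newborns it took 3.04%, 2.94%, 3.68% and 5.46%. In PND2N it took 2.83%, 2.22%, 2.56% and 2.98%, and in PND2R 3.49%, 3.61%, 4.25% and 2.93%. The nursed gilts were the low group: PND2N replicate 4 was the only one of its group above the lowest PND0 and PND2R libraries. miR-125a averaged 0.880% ± 0.277 and varied most, by 4.04-fold between its lowest and highest library. It held 0.626%, 0.861%, 1.48% and 1.05% in PND0. It held 1.12%, 0.368%, 0.889% and 0.697% in PND2N, and 0.815%, 0.801%, 0.843% and 1.01% in PND2R. The groups overlapped, and the lowest value came from PND2N replicate 2, at 138 reads and an exact 95% interval of 0.310% to 0.435%. Libraries over 1000000 reads held 0.861% to 1.48% of miR-125a and those under 100000 held 0.368% to 0.843%. The 3 libraries of 100000 to 1000000 reads held 0.626% to 1.05%, which overlaps both. Their median of 0.697% lay below the 0.808% of the libraries under 100000. The highest library under 100000, PND2R replicate 3 at 0.843%, had an exact 95% interval of 0.764% to 0.930%, which takes in 0.861%. No PND0 library held under 100000 reads. The part of depth in the miR-125a values was not tested.

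**Figure D1:**
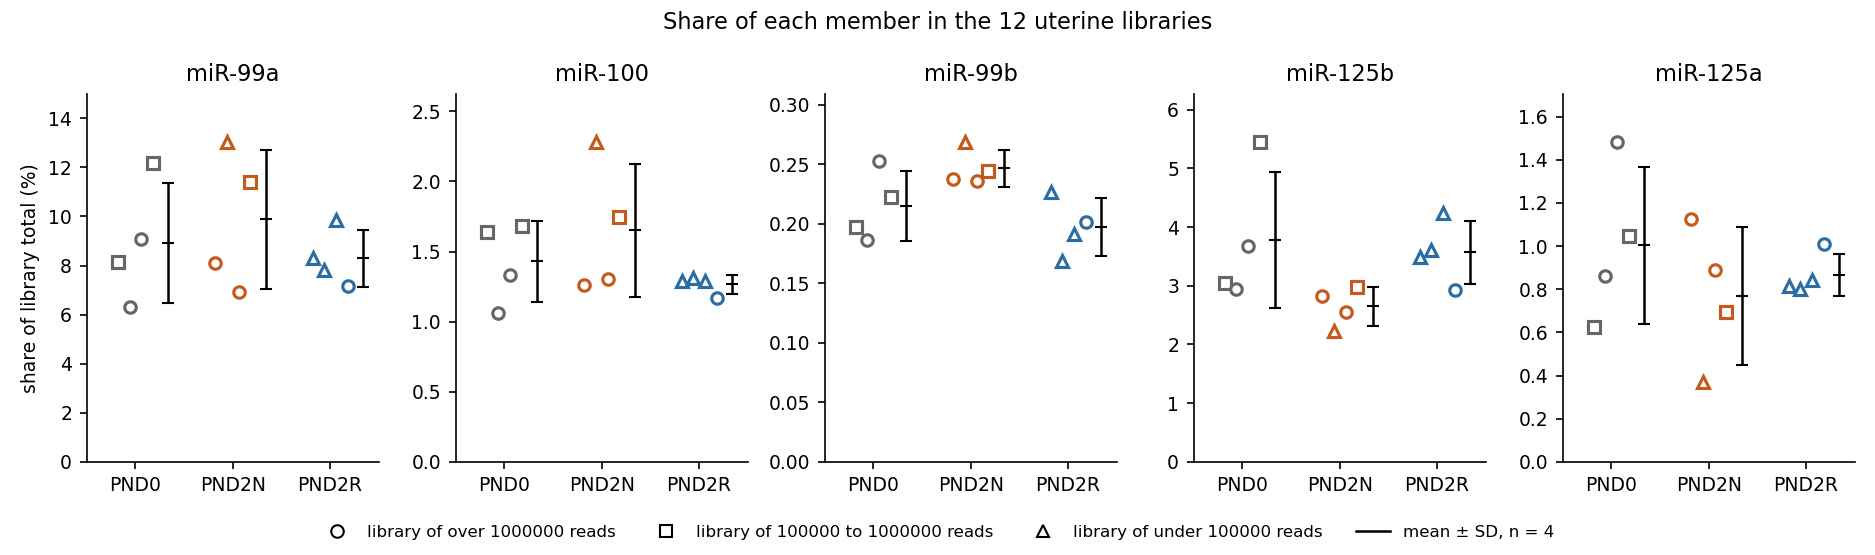
Share of each of the 5 miRNAs in the library total (percent, y axis, one scale per panel) for PND0, PND2N and PND2R. Each symbol is 1 library, shaped by its depth class, and the bars give the group mean ± SD (n = 4). The PND2N libraries of miR-99b, 0.236% to 0.269%, lie above all PND2R libraries, and PND2N replicate 2 is the highest library for miR-99a and miR-100 and the lowest for both miR-125 members.

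Within libraries the order of the members was nearly fixed. miR-99a exceeded miR-125b in 12 of 12 libraries, by a median ratio of 2.46. miR-125b exceeded miR-100 in 11 of 12, at a median ratio of 2.60. The exception was PND2N replicate 2, where the ratio was 0.973 from 857 reads of miR-100 and 834 of miR-125b. miR-100 exceeded miR-125a in 11 of 12 libraries (median ratio 1.56), with PND0 replicate 3 as the exception at 0.896. miR-125a exceeded miR-99b in all 12, by 1.37-fold in PND2N replicate 2 and up to 5.87-fold in PND0 replicate 3.

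Between nursed gilts and newborns, the 3 miR-99/100 members stood slightly above 0 on the log2 scale and both miR-125 members below, and none passed the test. The log2 fold change, on log2(rpm + 10) with rpm as the deposited value per 1000000 of the library's total, was 0.14 ± 0.23 (SE) for miR-99a (limma, adjusted p = 0.886). It was 0.19 ± 0.20 for miR-100 (limma, adjusted p = 0.870) and 0.21 ± 0.16 for miR-99b (limma, adjusted p = 0.736). These 3 groups of values overlapped widely, with PND2N the higher in 9, 10 and 13 of 16 library pairs. For miR-125b it was -0.48 ± 0.20 (limma, adjusted p = 0.558), and PND2N was the higher in 1 of 16 pairs. For miR-125a the value was -0.43 ± 0.30 (limma, adjusted p = 0.718), with PND2N above in 6 of 16 pairs.

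Of the 5 members 0 passed by limma at an adjusted p under 0.05, as did 0.0% of all 268 rows tested. At an unadjusted p under 0.05 there was 1 member, miR-125b, beside 8.21% of all rows. By edgeR on recovered reads 0 of 5 passed and 0 had an unadjusted p under 0.05, beside 6.34% of all rows. Groups overlapped for all 5 members, where 3.36% of all rows did not overlap in either direction, 0.746% with PND2N higher and 2.61% with it lower. The edgeR log2 fold changes were 0.34 ± 0.24 for miR-99a, 0.40 ± 0.22 for miR-100, 0.37 ± 0.18 for miR-99b, -0.35 ± 0.19 for miR-125b and -0.23 ± 0.26 for miR-125a (adjusted p from 0.725 to 0.989). The median over all rows was -0.15 by limma, -0.05 by edgeR, -0.02 with TMM-scaled shares and -0.49 on the unscaled deposited values. On the last scale miR-99a, miR-100 and miR-99b turned negative, at -0.23, -0.18 and -0.16. Relative to the median of all rows under limma they stood at 0.29, 0.34 and 0.36, and miR-125b and miR-125a at -0.33 and -0.28. Without PND2N replicate 2 the limma log2 fold change was -0.01 for miR-99a, 0.02 for miR-100, 0.16 for miR-99b, -0.40 for miR-125b and -0.11 for miR-125a.

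At 50 h of age, nursed gilts again had higher mean log2 levels of the 3 miR-99/100 members than replacer-fed gilts and lower ones of both miR-125 members, and none of these differences passed. The log2 fold change was 0.22 ± 0.23 (SE) for miR-99a (limma, adjusted p = 0.712). For miR-100 it was 0.34 ± 0.20 (limma, adjusted p = 0.507), with PND2N above PND2R in 12 of 16 pairs of libraries. For miR-99b it was 0.33 ± 0.16 (limma, adjusted p = 0.402), with PND2N above in 16 of 16 pairs. miR-125b stood at -0.43 ± 0.20 (limma, adjusted p = 0.376), with PND2N above in 1 of 16 pairs. miR-125a stood at -0.28 ± 0.30 (limma, adjusted p = 0.727). Without PND2N replicate 2 the log2 fold change was 0.07 for miR-99a, 0.17 for miR-100, 0.28 for miR-99b, -0.35 for miR-125b and 0.04 for miR-125a, whose sign turned.

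By limma 0 of the 5 members and 0.0% of the 268 rows passed, and 1 member, miR-125b, was at an unadjusted p under 0.05 beside 12.7% of all rows. By edgeR 0 of 5 passed, and miR-99b (log2 fold change 0.47 ± 0.18) and miR-100 (0.56 ± 0.23) were at an unadjusted p under 0.05 beside 7.46% of all rows. Both had an edgeR adjusted p of 0.603. miR-99b was the 1 member of 5 whose groups did not overlap, where 5.97% of all rows did not overlap in either direction 1.12% with PND2N higher and 4.85% with it lower. Depth and feeding partly coincide here, since 3 of the 4 PND2R libraries held under 100000 reads. Without the 4 shallow libraries PND2R keeps 1 library, and the limma log2 fold changes were 0.24 for miR-99b, 0.28 for miR-100 and -0.07 for miR-125b, the lone library being assumed to vary like the others.

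Between replacer-fed gilts and newborns all 5 members lay slightly below 0 on the log2 scale, and none passed. The values were -0.08 ± 0.23 for miR-99a, -0.15 ± 0.20 for miR-100, -0.12 ± 0.16 for miR-99b, -0.05 ± 0.20 for miR-125b and -0.15 ± 0.30 for miR-125a (limma, ± SE, adjusted p from 0.935 to 0.974). By limma 0 of 5 passed and 0 were at an unadjusted p under 0.05, beside 0.0% and 12.3% of the 268 rows. By edgeR the same counts were 0 and 0, beside 0.0% and 10.4% of all rows. Groups overlapped for all 5, where 7.46% of all rows did not overlap, 2.99% with PND2R higher and 4.48% with it lower. These SEs leave room for changes of either sign, and the test does not show that the levels were alike. The 3 comparisons share groups pairwise, so their values are not independent of each other.

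**Figure D2:**
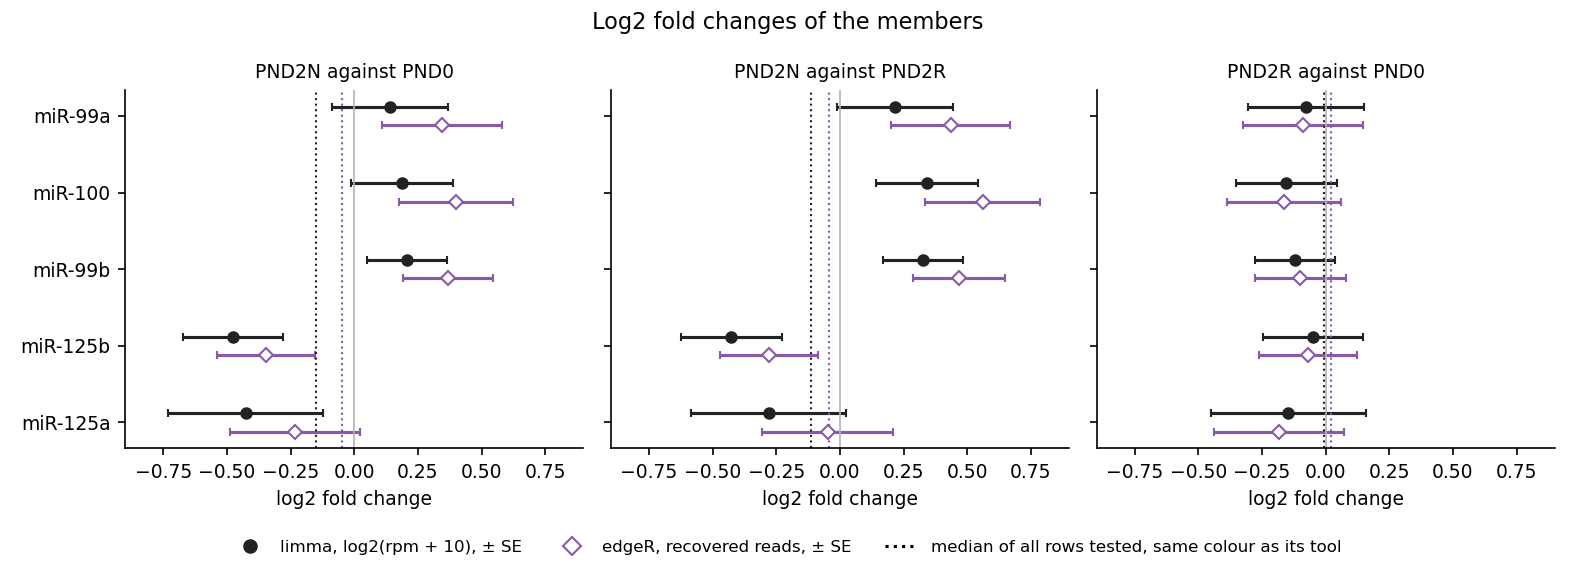
Log2 fold change (x axis) of the 5 miRNAs in the 3 comparisons by limma on log2(rpm + 10) (filled circles) and by edgeR on recovered reads (open diamonds), each ± SE, with dotted lines at the median of all rows tested. In both comparisons of PND2N the miR-99/100 members lie right of 0 and the miR-125 members left of it by both tools, whereas on unscaled deposited values miR-99a, miR-100 and miR-99b lie at -0.23, -0.18 and -0.16 for PND2N against PND0. None passed.

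The ratio of miR-99/100 to miR-125 members within a library needs no scaling between libraries. Summed over the members it was 2.72, 1.99, 2.06 and 2.17 in PND0 replicates 1 to 4. In PND2N it was 2.43, 6.02, 2.46 and 3.65, and in PND2R 2.28, 2.11, 2.23 and 2.17. All 4 nursed gilts lay above all 4 replacer-fed gilts and above 3 of the 4 newborns, with PND0 replicate 1 the newborn inside the PND2N range. Among 1770 ratios of 2 single miRNAs of at least 1000 rpm, 12.8% did not overlap between PND2N and PND2R. No such share was taken for sums, and these sums are mostly miR-99a and miR-125b. The high PND2N mean of 3.64 ± 1.69 (SD, n = 4) rests largely on replicate 2, without which it was 2.85 ± 0.692 (n = 3), against 2.23 ± 0.330 in PND0 and 2.20 ± 0.0747 in PND2R (n = 4 each). Among the libraries over 1000000 reads the ratio was 2.43 and 2.46 in PND2N, 1.99 and 2.06 in PND0 and 2.17 in the 1 PND2R library.

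The numerator and the denominator both differed in mean. The miR-99/100 members summed to 11.8% ± 3.31 of the library in PND2N, 10.6% ± 2.69 in PND0 and 9.75% ± 1.18 in PND2R. The miR-125 members summed to 3.42% ± 0.588, 4.79% ± 1.33 and 4.44% ± 0.482 (SD, n = 4) in the same order. In PND2N replicate 2 these sums were 15.6% and 2.59%, the highest and the lowest of the 12 libraries.

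The ratio was then taken for 3 pairs of single members. miR-99a over miR-125b was 2.67, 2.15, 2.46 and 2.23 in PND0. It was 2.87, 5.87, 2.71 and 3.83 in PND2N, and 2.38, 2.17, 2.32 and 2.45 in PND2R. Every nursed gilt lay above every gilt of the other 2 groups, although the lowest PND2N library (2.71) and the highest PND0 library (2.67) were close. The difference in mean log2 ratio was 0.62 against PND0 and 0.64 against PND2R, or 1.53-fold and 1.56-fold. Each had a two-sided exact permutation p of 0.0286, the smallest that 4 against 4 can give over 70 splits, and an exact permutation p of 0.0857 after Benjamini-Hochberg adjustment over the 9 ratio tests. Neither passed after adjustment. Since 0.0286 is the smallest p possible, a pair could pass only if most of the 9 tests reached it.

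miR-100 over miR-125b was 0.539, 0.362, 0.361 and 0.309 in PND0. It was 0.448, 1.03, 0.511 and 0.585 in PND2N, and 0.371, 0.363, 0.303 and 0.400 in PND2R. Nursed gilts lay above replacer-fed gilts in 16 of 16 pairs, by 0.77 in mean log2 ratio or 1.70-fold (exact permutation p = 0.0286, adjusted 0.0857). Against PND0 the difference was 0.67 (14 of 16 pairs, exact permutation p = 0.0857, adjusted 0.193). Here PND0 replicate 1 lay inside the PND2N range.

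miR-99b over miR-125a, 2 members of 1 cluster, was 0.315, 0.217, 0.170 and 0.213 in PND0, 0.211, 0.732, 0.265 and 0.351 in PND2N and 0.279, 0.211, 0.227 and 0.200 in PND2R. The groups overlapped. The mean log2 ratio of PND2N differed by 0.63 from PND0 (exact permutation p = 0.200, adjusted 0.300) and by 0.61 from PND2R (exact permutation p = 0.171, adjusted 0.300). PND2R and PND0 differed by 0.03, -0.03 and -0.10 in the log2 ratios of miR-99b, miR-99a and miR-100 to their miR-125 partner (exact permutation p from 0.771 to 0.914, adjusted 0.868 to 0.914). Of the 3 pairs 1 did not overlap between PND2N and PND0, 2 did not between PND2N and PND2R and 0 did not between PND2R and PND0. Among all 1770 pairs of the 60 miRNAs of at least 1000 rpm, 5.76%, 12.8% and 7.8% did not overlap in those comparisons. The ratios of miR-99a and of miR-100 to miR-125b share their denominator, so they are not independent of each other.

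Without PND2N replicate 2 the log2 differences shrank but kept their sign. For miR-99a over miR-125b they were 0.39 against PND0 and 0.41 against PND2R, and the groups still did not overlap (exact permutation p = 0.0571 and 0.0286, adjusted 0.171 and 0.129). For miR-100 over miR-125b they were 0.41 and 0.52 (exact permutation p = 0.171 and 0.0286, adjusted 0.386 and 0.129). For miR-99b over miR-125a they were 0.27 and 0.25 (exact permutation p = 0.400 and 0.286, adjusted 0.600 and 0.514). None passed after adjustment. Other measures also stood apart in PND2N replicates 2 and 4. The smooth muscle miRNAs summed to 29.1% in PND2N replicate 2 and 21.3% in replicate 4, the 2 libraries with the highest ratios, and to 16.6% and 16.4% in PND2N replicates 1 and 3. In PND2R, where ratios were low, they summed to 18.1% to 20.9%, and in PND0 to 9.49% to 17.8%. Most of each sum was miR-143-3p, which held 14.6% to 28.5% in PND2N, 15.8% to 19.6% in PND2R and 8.43% to 16.9% in PND0. miR-145-5p held 0.408% to 1.75%, 0.818% to 2.10% and 0.384% to 0.989% in the same order. The sums therefore do not show how miR-145 varied between libraries. The summed miR-99/100 to miR-125 ratio was 2.43 and 2.46 in PND2N replicates 1 and 3 and 2.11 to 2.28 in PND2R. The epithelial sum was 0.0320% and 0.0486% in PND2N replicates 2 and 4, the 2 lowest of the 12. The leukocyte miRNAs summed to 0.0225% and 0.0305% in these libraries, also the 2 lowest, against 0.0381% to 0.0506% in the other 10. The epithelial and leukocyte sums of PND2N replicate 2 rest on few reads, as 1 read there was 26.7 rpm. Most of the mean leukocyte sum was miR-155-5p, at 0.0310% in PND0, 0.0234% in PND2N and 0.0308% in PND2R. Not every leukocyte row was low in nursed gilts. miR-142-5p averaged 0.00315%, 0.00315% and 0.00331% in the same order. miR-150 held 0.00330% to 0.00800% in PND2N, 0.00404% to 0.00612% in PND0 and 0.00495% to 0.0104% in PND2R. The part of these miRNAs and of depth in the ratios was not tested.

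**Figure D3:**
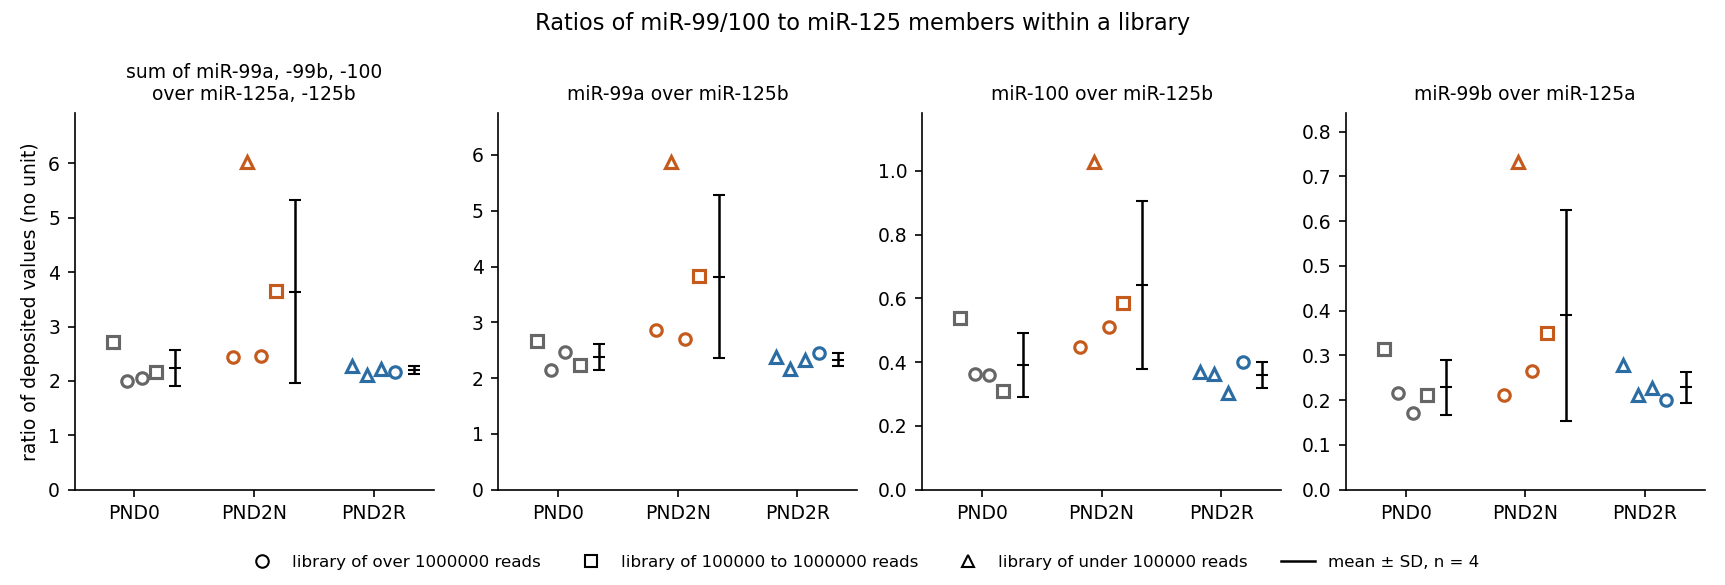
Ratio of miR-99/100 to miR-125 members within a library (y axis, no unit, one scale per panel) for the sums and for 3 pairs of members. Each symbol is 1 library, shaped by depth class, with the group mean ± SD (n = 4). The PND2N libraries of miR-99a over miR-125b, 2.71 to 5.87, lie above all others, and PND2N replicate 2, a library under 100000 reads, is the highest in every panel.

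The let-7 partners of the clusters stood on the side of the miR-125 members between nursed gilts and newborns. let-7a, for the more abundant of its 2 rows, held 1.85% ± 0.339 in PND0, 1.41% ± 0.174 in PND2N and 1.62% ± 0.132 in PND2R (SD, n = 4). let-7c held 1.37% ± 0.0822, 1.10% ± 0.191 and 1.16% ± 0.0821, and let-7e 0.303% ± 0.0546, 0.221% ± 0.0365 and 0.277% ± 0.0319 in the same order. All 4 rows of the 3 names lay below 0 for PND2N against PND0 (limma median -0.38, edgeR -0.22), beside medians of -0.15 and -0.05 over all rows, and 0 of 4 passed in any of the 3 comparisons by either tool. Against PND2R the limma median was -0.20, with all 4 below 0, and by edgeR 3 of 4 were below 0 (median -0.05). Related let-7 members can share reads and are uncertain.

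Within the trio of miR-99b, let-7e and miR-125a, miR-125a made up 63.2% ± 7.01 of the summed values, let-7e 19.9% ± 3.00 and miR-99b 17.0% ± 5.66 (SD, n = 12). In PND2N replicate 2 miR-99b reached 33.1% of the trio and miR-125a stood at its lowest part, 45.2%. Without regard to group, let-7e ranged from 15.8% to 25.3% of the trio. Of the other let-7 rows 0 of 7 passed in any comparison by either tool, with a limma median of -0.16 for PND2N against PND0, of -0.01 between the 2 feeding groups and of -0.33 for PND2R relative to newborns.

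The miR-10 genes of the HOX clusters belong to the wider family of miR-99 and miR-100. miR-10b held 4.56% ± 1.08 in PND0, 5.32% ± 1.07 in PND2N and 4.27% ± 0.808 in PND2R, and miR-10a-5p 0.823% ± 0.159, 0.832% ± 0.0510 and 0.613% ± 0.134 (SD, n = 4). Of the 3 rows, which include miR-10a-3p, 0 passed in any comparison by either tool. Their limma median between PND2N and PND2R was 0.32, with 2 above 0 and 1 below, beside -0.11 over all rows. By edgeR all 3 lay above 0 (median 0.45).

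How closely 2 miRNAs kept step was described by the SD of their log2 ratio over the 12 libraries. It was 0.18 for miR-99a and miR-100, whose genes stand on different chromosomes, and 0.28 and 0.26 for each of these with miR-99b. It was 0.44 for miR-125a and miR-125b, and 0.42, 0.49 and 0.56 for the cross-family pairs miR-99a with miR-125b, miR-100 with miR-125b and miR-99b with miR-125a. The widest spread among members was 0.74, between miR-100 and miR-125a. Over the 12 libraries, which share depth differences, pairs inside the miR-99/100 family varied less than these 3 cross-family pairs, an order that did not hold throughout without PND2N replicate 2. Without that library the SD was 0.29 for miR-99a with miR-99b, above the 0.24 for miR-99a with miR-125b.

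The 8 libraries of at least 100000 reads gave the same SD of 0.18 for miR-99a with miR-100, and 0.29 and 0.26 for miR-99b with miR-99a and with miR-100. The 3 cross-family values were then 0.26, 0.32 and 0.35, so the ranges of the 2 kinds of pair overlapped. miR-99a and miR-100 have nearly the same sequence, so reads placed on one can belong to the other, and their agreement is uncertain for that reason. In these 8 libraries miR-125b was closer to let-7a (0.16) and let-7e (0.20) than to any other member. The same held over all 12 libraries, at 0.16 and 0.18.

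**Figure D4:**
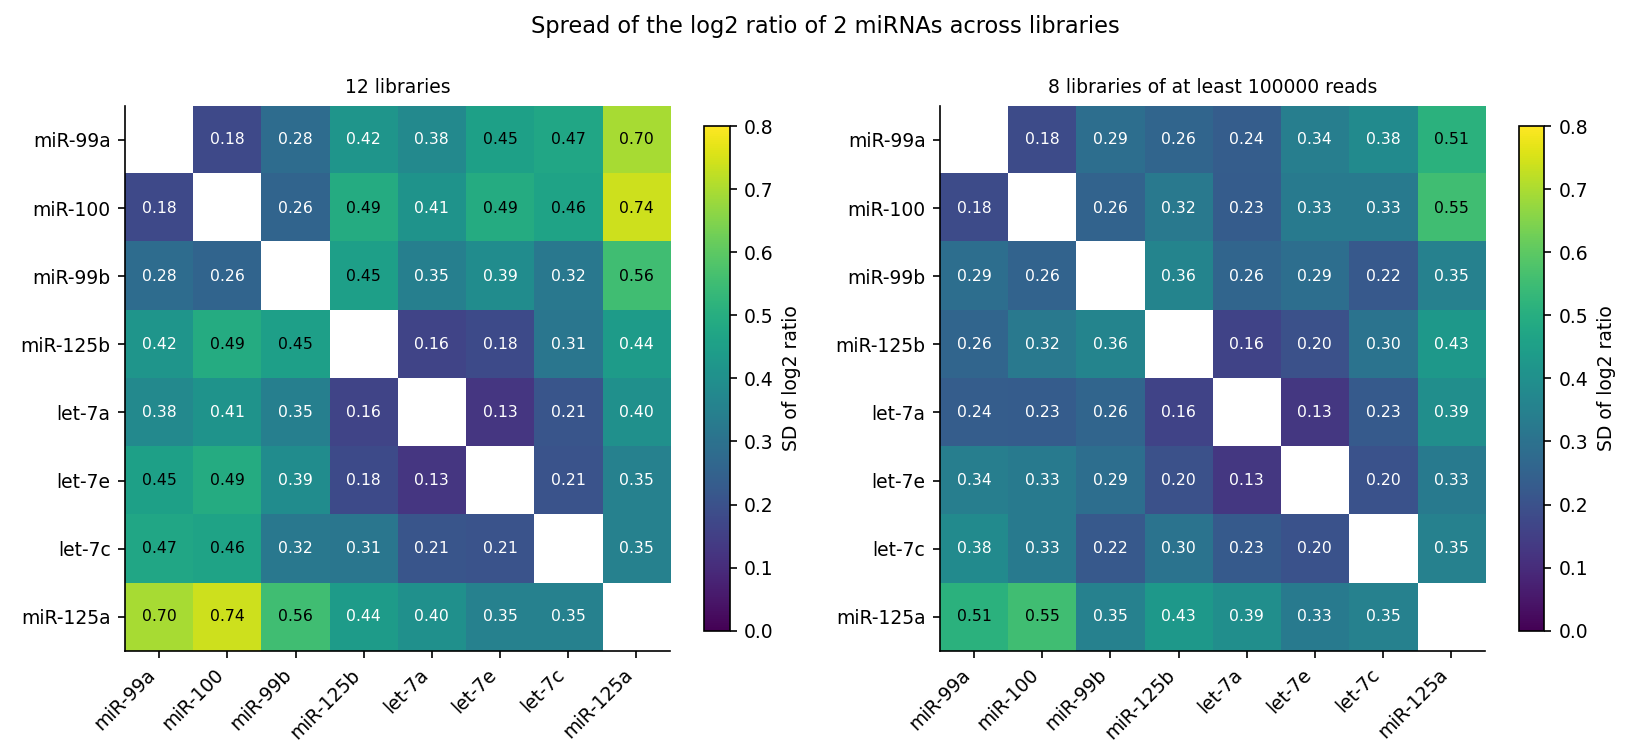
SD of the log2 ratio of 2 miRNAs (colour and printed value, no unit) over 12 libraries and over the 8 libraries of at least 100000 reads, for the 5 members and their let-7 partners. Low values mark pairs that kept step: 0.18 for miR-99a with miR-100 in both panels and 0.16 for miR-125b with let-7a, while miR-100 with miR-125a is at 0.74 over 12 libraries.

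By the same measure the closest of 59 other miRNAs to miR-99a were miR-100, miR-128 (0.26) and miR-99b, with a median of 0.54 over the 59. To miR-100 they were miR-99a, miR-99b and let-7f (0.33, median 0.51). To miR-99b they were let-7f (0.20), miR-199b-3p (0.22) and miR-10a-5p (0.25, median 0.43). miR-125b was closest to miR-199a-3p (0.14), let-7a and let-7e (median 0.44). miR-125a was closest to miR-92a (0.13), miR-191 (0.23) and miR-30c-5p (0.25, median 0.48). These candidates had a mean of at least 1000 rpm, with 1 row per name.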

How the data were processed

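Uterine small RNA of 12 gilts was sequenced (500 ng of RNA, a NEBNext kit, 6 PCR cycles, single reads of 50 bp, per the labels' protocols). The submitters' processing notes name Sscrofa 10.2 and FastQC. Aligner and counter are not given in the sources used here. Per miRNA row, the authors deposited a scaled signal. As the table itself shows, each entry equals a number of reads over 1 factor per library, and entries under 1 were raised to 1. Steps between low values gave whole reads: 100% of values up to 1000 reads lay within 0.1 of a whole read and at least 95.9% of all above the floor. The floor hides up to 12 reads, which members exceed in every library. The range of depth, 325-fold, sets the precision.

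Shares are the deposited value over the library's deposited total. Groups were compared with limma 3.58.1 in R 4.3.3 (moderated by a mean-variance trend) on log2(rpm + 10), all 12 libraries, 1 coefficient per group, two-sided, Benjamini-Hochberg over the 268 rows that exceeded the floor in 4 or more libraries, threshold 0.05. edgeR 4.0.16 (quasi-likelihood, TMM, SE from the F value), limma voom and DESeq2 1.42.0 were run on recovered reads as alternatives. Ratios of member pairs were compared by exact permutation, two-sided, adjusted over 9 tests. Scripts were tested on simulated data. Replicates were numbered in accession order. Named miRNAs were all members, up to 4 of the most abundant members of each other list and the 3 closest miRNAs by SD of the log2 ratio. Members, lists and tests were chosen with earlier results of these data known. Marker lists for smooth and striated muscle, epithelium, red cells, leukocytes, endothelium, neural tissue and liver gave 0 rows passing in each comparison by limma and by edgeR. Figures were drawn with matplotlib 3.10.9.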

Additional observations from a re-analysis of the deposited data

Results flagged for a closer look

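The share of miR-100 in PND2R replicate 4, 1.17%, lay apart from the other 3 replacer-fed gilts at 1.29% to 1.31%, by a gap that exceeds Dixon's 95% critical value for 4 samples. That library held 9395582 reads and the other 3 held under 100000. Of 30 groups of 4 values checked, 1 stood out in this way, and chance alone flags about 1 in 20.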

How the results depend on the processing

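Alternatives covered pseudocounts of 1 and 50 rpm, unscaled deposited values, TMM-scaled shares, 2 other filters, weighting of libraries, only the 2 groups compared, 1 row per name, edgeR, limma voom, DESeq2, the 4 shallow libraries left out and each library left out. No member passed in any of them. Rows called numbered 0 in all 3 comparisons, except 1 with library weights for PND2N against PND0. At an unadjusted p under 0.05, voom had 24, 23 and 36 rows and DESeq2 15, 18 and 18, in the order PND2N against PND0, PND2N against PND2R, PND2R against PND0. Leaving out 1 library gave 0 to 1, 0 to 5 and 0 to 2 calls in that order, the highest without PND0 replicate 4 (1) or PND2R replicate 4 (5 and 2). None of these was a member.

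Some members changed sign, and the cause was not tested. For PND2N against PND0, unscaled values gave -0.23 for miR-99a, -0.16 for miR-99b and -0.18 for miR-100, and miR-99a was at -0.00866 without the shallow libraries. Library weights, lowest for PND2N replicate 2, put miR-125a at 0.0910 for PND2N against PND0 and 0.0440 for PND2N against PND2R. For PND2R against PND0 they put miR-125a at 0.0470, miR-99a at 0.00963 and miR-125b at 0.0560, and miR-125a was at 0.0774 without the shallow libraries. With each library left out, miR-99a ranged from -0.0118 to 0.30 for PND2N against PND0, and miR-125a from -0.50 to 0.0376 for PND2N against PND2R. For PND2R against PND0 the ranges were -0.23 to 0.0867 for miR-99a, -0.35 to 0.0640 for miR-125a and -0.15 to 0.14 for miR-125b.

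The 6 log2 ratio differences of PND2N were positive in every alternative. For PND2R against PND0, miR-99b over miR-125a was -0.16, miR-99a over miR-125b 0.0468 and miR-100 over miR-125b 0.0575 without the shallow libraries. With 1 library left out these ranged from -0.10 to 0.19, -0.0739 to 0.0313 and -0.21 to 0.0587. Without the shallow libraries PND2R keeps 1 library, so exact tests against it cannot pass. No paired analysis was possible because replicates were numbered in accession order and pair no samples. Depth limits miR-99b most, at 92 reads in the thinnest case.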
